A study of Mus musculus with 34 samples.

Results

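The clustered protocadherins are cell-surface adhesion proteins of the cadherin family, encoded by an alpha, a beta and a gamma cluster that lie next to each other on mouse chromosome 18. Most of their first exons carry a promoter of their own, and in neurons, where these genes are best known, a choice among the promoters gives each cell its own set of isoforms. CTCF, a zinc-finger protein that binds DNA and halts the cohesin complex, is known to occupy many of these promoters and a distal enhancer, and cohesin (of which SMC1 is a subunit) is known to take part in the looping between them. Protein-coding genes of GENCODE named Pcdha, Pcdhb or Pcdhg on this chromosome were taken as members, which gave 57 of 21938 protein-coding genes, of which 14 lay in the alpha, 22 in the beta and 21 in the gamma cluster. In mm10 coordinates the alpha cluster ran from 36930184 to 37187661, the beta cluster from 37264938 to 37524479 and the gamma cluster from 37661793 to 37841873, all transcribed from the + strand. A further name match, Pcdhgb8, is annotated as a polymorphic pseudogene, was not counted and is described by itself.

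The question was how the loss of CTCF and stimulation with LPS, a bacterial cell wall component, change the binding of proteins and the marks of chromatin in dendritic cells, and the clusters were read in the 30 peak lists made for this by chromatin immunoprecipitation and sequencing (ChIP-seq). Bone marrow of C57BL/6 mice, 8 weeks old, was grown with GM-CSF for 6 days into bone marrow-derived dendritic cells (BMDCs), selected for the surface protein CD11c, and 4-OH tamoxifen was given to all cultures on the first day. Control cultures carried CreER, a tamoxifen-activated recombinase expressed from the Rosa26 locus (WT), and CTCF-deficient cultures carried CreER;CTCF fl/fl (KO), so the recombinase and the drug were common to both. WTLPS and KOLPS were cultures of these genotypes after 3 h of LPS at 100 ng/ml, and cells for STAT5 were given GM-CSF again for 15 min. CTCF, SMC1, H3K27me3, H3K4me3, H3K4me1, H3K27ac and p65 (an NF-kB subunit activated by LPS) were mapped in all 4 conditions, and STAT5, which acts downstream of GM-CSF, in WT and KO. Each antibody and condition had 1 list, so no difference between conditions has a replicate check and none is tested. In a check of the cell type against marker genes, a peak of H3K4me3, the mark of open promoters, lay at 11 of 12 dendritic and myeloid marker genes and at 0 of 4 T-cell, 0 of 4 B-cell, 1 of 3 neutrophil-precursor and 1 to 2 of 5 neuronal marker genes in each condition. The CTCF lists of WT, WTLPS, KO and KOLPS held 60537, 54020, 20151 and 11576 peaks, and those of SMC1 held 63638, 57354, 29965 and 17241.

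A promoter was the stretch from 1 kb before to 1 kb after the start site of the gene's longest transcript, and it held a peak when both shared at least 1 bp. In WT, CTCF lay at 32 of the 57 protocadherin promoters (56.1%, 95% Wilson interval 43.3 to 68.2), against 18.7% of all protein-coding promoters. These were 10 alpha, 11 beta and 11 gamma promoters. In WTLPS, CTCF lay at 27 of them (47.4%, 35.0 to 60.1), against 16.8% of all promoters. The KO list held 1 member, Pcdhgb7, against 11.1% of all promoters, and the KOLPS list held 0, against 5.39%. Wilson intervals here cover counting error only, and genes of 1 cluster are not independent of each other.

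**Figure D1:**
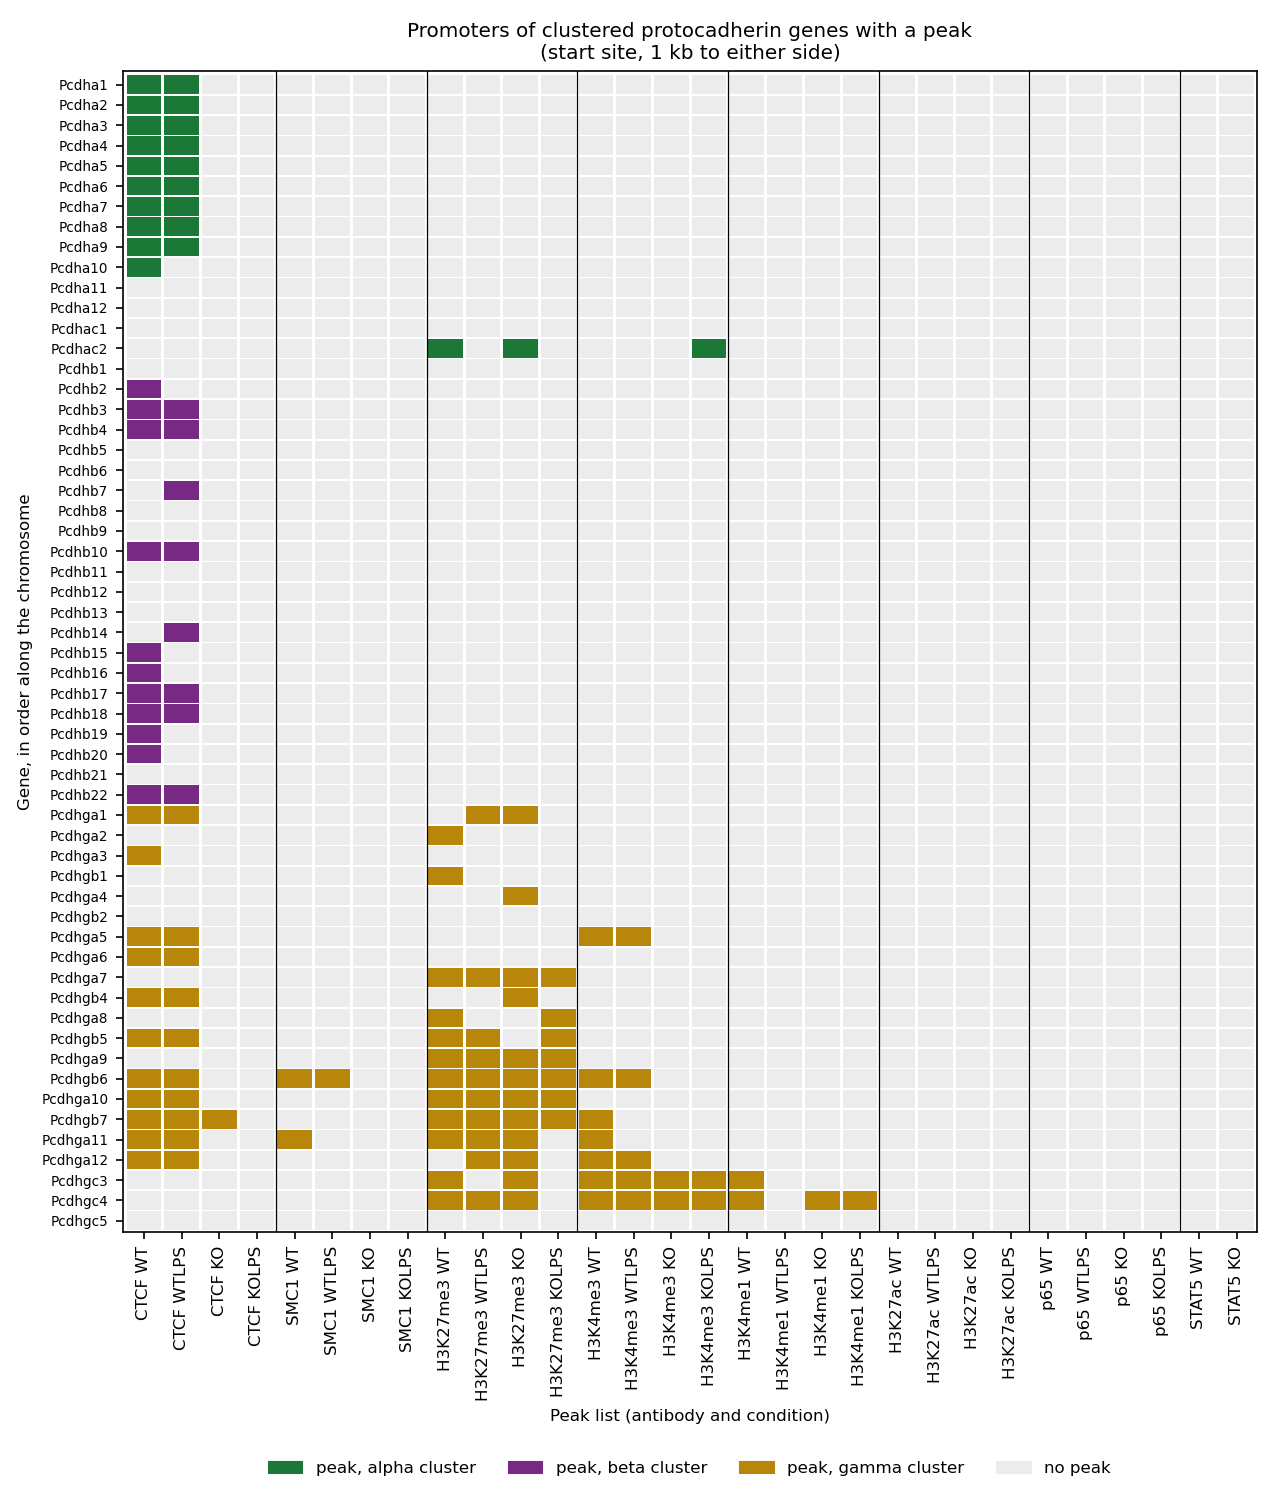
Promoter peaks of the 57 members in genome order (vertical axis) for each antibody and condition (horizontal axis), coloured by cluster where a peak lies within 1 kb of the start site; STAT5 was mapped in WT and KO. CTCF fills 32 promoters across all 3 clusters in WT and 1 in KO, H3K27me3 is gathered in the gamma cluster, and the H3K27ac, p65 and STAT5 columns are empty.

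Occupied promoters had moderate CTCF peaks, and the gamma cluster held the strongest. The fold enrichment over background that the authors' peak caller gave for the highest peak of each promoter had a median of 6.75 in the alpha, 4.43 in the beta and 8.65 in the gamma cluster in WT. Over the 32 members it ranged from 3.80 to 17.1 with a median of 6.23, below the median of 9.64 over all protein-coding genes with a CTCF promoter peak. In WTLPS the member median was 5.74, against 8.83 for all such genes. Pcdhgb6, Pcdhgb7 and Pcdhga11, which lie close together with Pcdhga10 among them, shared the highest member value in WT, a fold of 17.1. In WTLPS their folds were 14.6, 14.8 and 11.5.

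In the alpha cluster, Pcdha6 was highest with a fold of 11.2 in WT and 12.1 in WTLPS. Pcdha4 followed with 10.8 in WT and 7.94 in WTLPS. Pcdha3 had 9.08 in WT and 6.18 in WTLPS. These are alternate alpha isoforms, each with a variable first exon for the extracellular part of the protein. In the beta cluster, whose genes are single-exon in most cases and share no constant exons, Pcdhb3 had a CTCF fold of 6.75 in WT and 6.84 in WTLPS, Pcdhb22 had 6.54 and 5.96, and Pcdhb10 had 5.49 and 5.07. The alpha promoters with a peak were consecutive, from Pcdha1 to Pcdha10, while Pcdha11, Pcdha12 and both C-type genes of that cluster had none. Of the 2 alpha genes that GENCODE calls Pcdha11, the upstream one is named Pcdha10 here, after RefSeq's gene at the same position.

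The C-type isoforms lie at the downstream end of the alpha and gamma clusters and are known to be used more broadly across neurons than the alternate isoforms. None of the 5 C-type promoters (Pcdhac1, Pcdhac2, Pcdhgc3, Pcdhgc4, Pcdhgc5) held a CTCF or SMC1 peak in any of the 8 lists. Pcdhb1, at the upstream end of the beta cluster, also held none. Pcdhb1, Pcdhac2, Pcdhgc4 and Pcdhgc5 are the members known to lack the conserved promoter element of the family, and CTCF was listed at 0 of these 4. Pcdhac1 and Pcdhgc3, which are not among these 4, had no CTCF peak either. Of all promoters in WT, 18.7% held CTCF and 22.6% SMC1, and counts of 0 among 4 or 5 genes cannot be told from such shares. A link to the element was not tested.

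**Figure D2:**
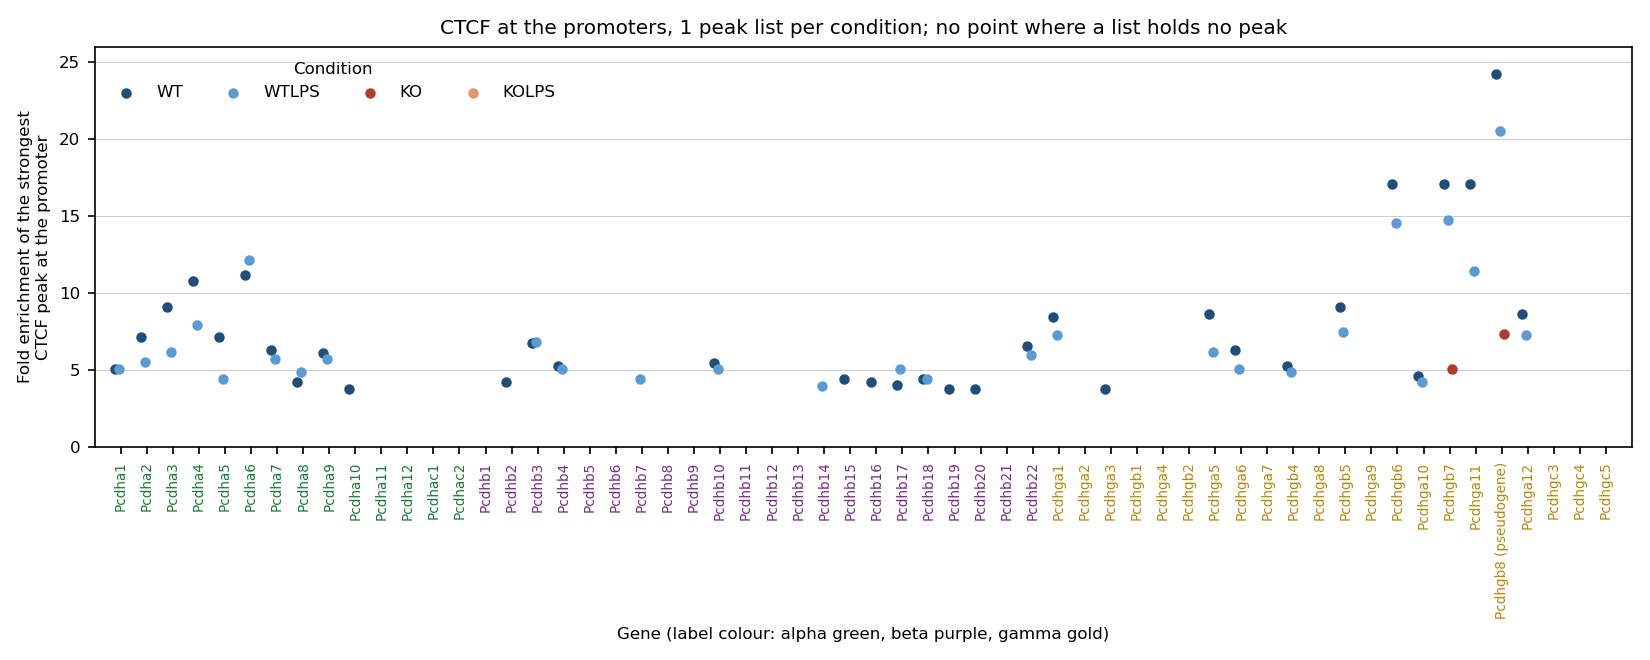
Fold enrichment of the highest CTCF promoter peak of each member (vertical axis, as the authors' peak caller gave it) along the members in genome order (horizontal axis), in WT, WTLPS, KO and KOLPS; a gene without a point in a condition has no peak there, and the pseudogene Pcdhgb8 is drawn beside the members. Among members, Pcdhgb6, Pcdhgb7 and Pcdhga11 stand highest at 17.1 in WT, and the single KO point is Pcdhgb7 at 5.06.

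Most CTCF summits in member windows lay upstream of the start of transcription, as did most in windows of all genes. Of 37 CTCF summits in member windows in WT, 28 (75.7%) lay upstream of the start, against 67.3% of the summits in windows of all protein-coding genes. In WTLPS, 21 of 31 (67.7%) lay upstream, against 68.5%, so in this condition the members were at the background. Upstream summits were closer to the start in members, at a median of -163 bp in WT against -317 bp for all genes. In WT, 27 of the 28 lay within 500 bp, against 1401 of 2186 for all genes. In WTLPS the upstream median was -197 bp against -344 bp, and 20 of 21 lay within 500 bp, against 1211 of 1921. Upstream medians in WT were -224 bp in the alpha, -138 bp in the beta and -179 bp in the gamma cluster.

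The alpha cluster had a further group of summits inside the genes. In WT, 5 of the 14 alpha summits lay downstream, at a median of 832 bp past the start. Over all protein-coding genes 1062 of 3248 summits did, at a median of 551 bp, so the alpha share downstream was near the background. All 5 alpha summits fell in the coding part of the first exon (Pcdha4, Pcdha5, Pcdha6, Pcdha7 and Pcdha8). Pcdha6 had its summit there, 636 bp past the start, in a wide peak that also covered the start, and the other 4 had a peak on each side. At Pcdha4 the downstream peak was the stronger, with a fold of 10.8 at 692 bp against 5.70 at -224 bp. At Pcdha5, Pcdha7 and Pcdha8 the upstream peak was the stronger. The downstream summits of the beta cluster (3) and the gamma cluster (1) in WT lay nearer to the start, at 1 to 256 bp, in untranslated exon sequence. At least 2 CTCF peaks in 1 window occurred at 6 of 57 members in WT, of which 4 were alpha genes, against 1.63% of all promoters.

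**Figure D3:**
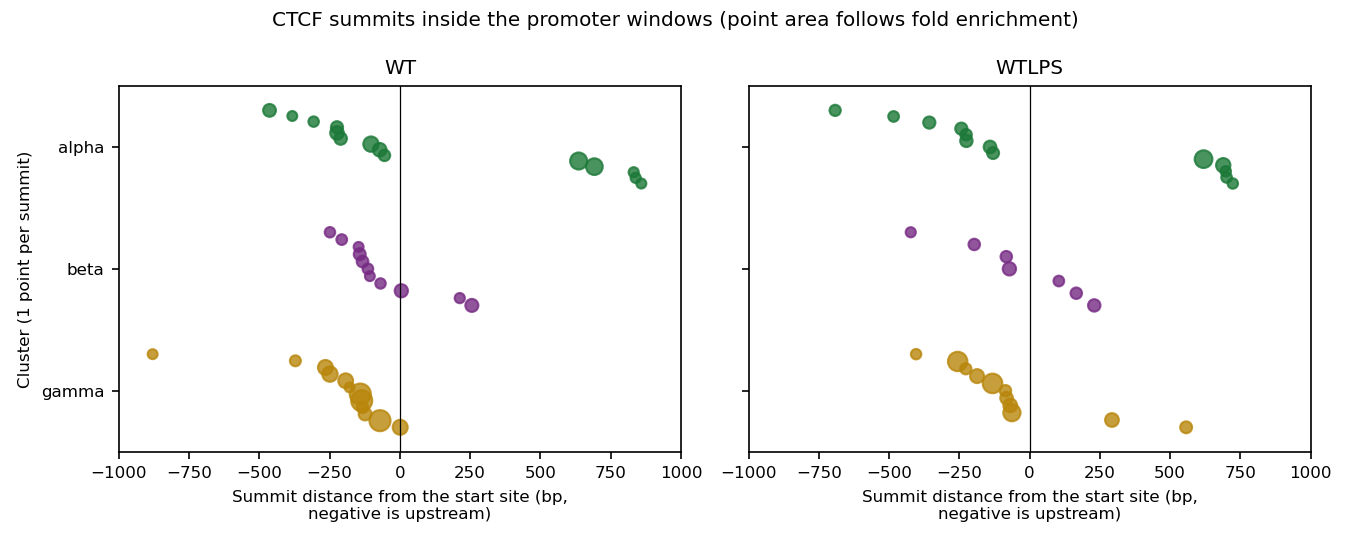
Distance of each CTCF summit from the member's start site in bp (horizontal axis, negative upstream) by cluster (vertical axis) in WT and WTLPS, with 1 point per summit and its area following the fold. Summits gather between 0 and 500 bp upstream in all 3 clusters, and a separate group between 636 and 859 bp downstream is seen in the alpha cluster in WT.

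The sequence under the summits was read for the 12-base core of the CTCF motif, on both strands of the mm10 genome. Within 50 bp of the summit an exact match was found at 0 of 37 member summits in WT and at 1 of 31 in WTLPS, an alpha summit. Over all CTCF summits the share was 7.62% in WT and 7.46% in WTLPS, and 0.144% at places 1 kb downstream of the WT summits. With 1 mismatch allowed the member counts were again 0 and 1, against 35.6% of all WT summits. In whole promoter windows the core was found at 6 of 57 members (10.5%), against 370 of 21938 protein-coding promoters (1.69%). All 6 were alpha genes (Pcdha1, Pcdha4, Pcdha6, Pcdha7, Pcdha8 and Pcdha12), and every match lay on the transcribed strand and began 537 to 581 bp past the start. The matches thus stood at nearly the same distance from the start in all 6 genes. A missing match shows that these letters are not in the window and nothing about binding.

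Nearly all of the members' CTCF peaks were gone in CTCF-deficient BMDCs. Of the 32 members with a promoter peak in WT, 31 had none in KO (96.9%, 84.3 to 99.4), against 62.5% of all genes with a WT peak. With LPS, 27 of the 27 members with a promoter peak in WTLPS had none in KOLPS (100%, 87.5 to 100), against 74.5% of all genes. The exception was Pcdhgb7, with a fold of 17.1 in WT, 14.8 in WTLPS, 5.06 in KO and no peak in KOLPS. The nearby Pcdhgb6 and Pcdhga11, with the same fold of 17.1 in WT, had no peak in KO or KOLPS. Pcdhgb8, the pseudogene beside them, was the strongest CTCF site of the clusters and behaved like Pcdhgb7, at 24.3 in WT, 20.5 in WTLPS, 7.34 in KO and no peak in KOLPS.

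Peak strength moves with this loss, and it was followed by ranking the CTCF list of WT by its -log10 p-values and dividing it into 10 equal parts. In the 7 weaker parts, none of the 29 members kept a peak in KO, while of the other protein-coding genes in those parts 12.2% to 28.7% kept one. In the ninth part, which holds Pcdhgb6, Pcdhgb7 and Pcdhga11, 1 of the 3 members kept a peak, and 71.8% of the other genes did. When the 4 CTCF lists were cut to their strongest 11576 peaks, the size of the KOLPS list, no member was left in WT and 2 were left in WTLPS, so 0 and 2 members lost a peak, and 38.3% and 46.6% of all genes did. The 31 lost peaks ranked between the 2.71 and the 80.7 percentile of the WT list, with a median at the 43.8 percentile. The number of listed peaks moved with the genotype, and the part of list length in the members' loss was not tested.

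**Figure D4:**
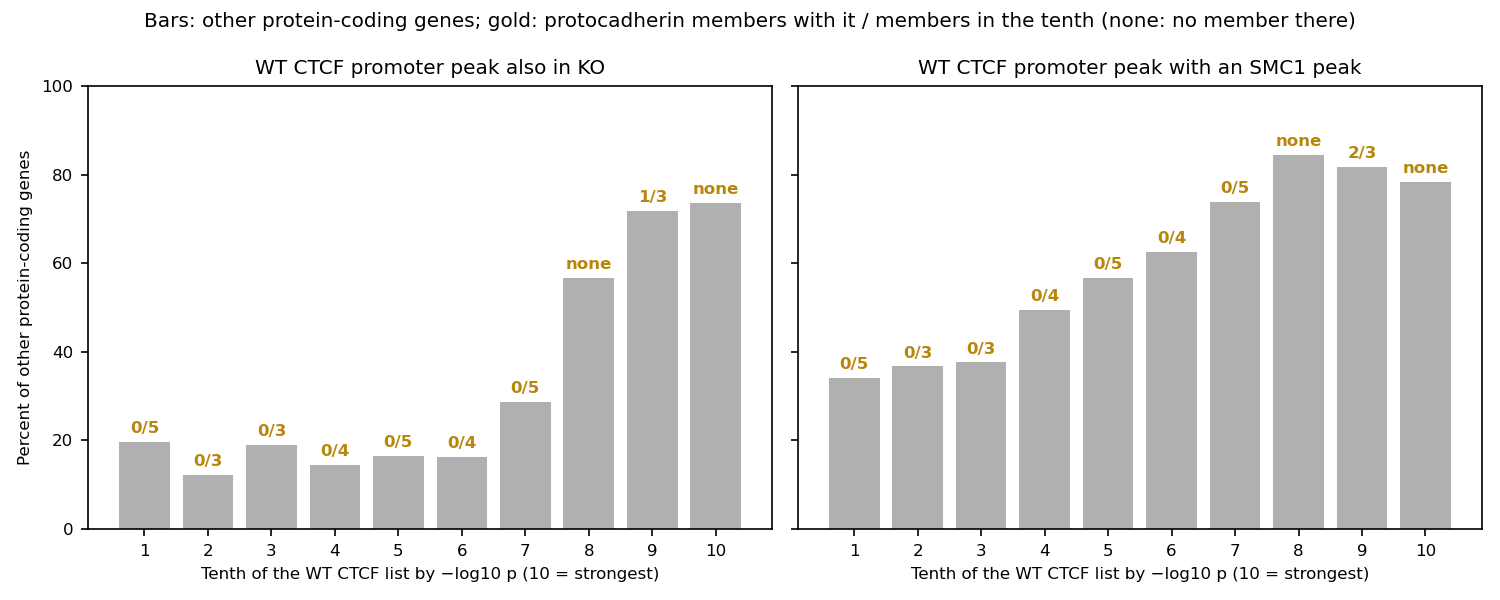
For the 10 equal parts of the WT CTCF list, from weakest to strongest (horizontal axis), the percentage of other protein-coding genes whose promoter peak was kept in KO and whose promoter also held SMC1 in WT (bars, vertical axis in percent); gold labels give members with the property over members in that part. Members stood in parts 1 to 7 and 9, and in parts 1 to 7 none of 29 kept CTCF or held SMC1.

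LPS changed the members' CTCF peaks less. From WT to WTLPS, 25 members had a peak in both, 7 had none in WTLPS (Pcdha10, Pcdhb2, Pcdhb15, Pcdhb16, Pcdhb19, Pcdhb20 and Pcdhga3), and Pcdhb7 and Pcdhb14 had one in WTLPS alone. The 7 of 32 compare with 16.9% of all genes. These 7 were weak in WT, with folds of 3.80 to 4.43, while the 25 shared ones had a median of 6.75. Pcdhb7 and Pcdhb14 were as weak in WTLPS, with folds of 4.41 and 3.97. In the beta cluster 5 of the 11 promoters with a WT peak had none in WTLPS. Over the whole beta cluster 6 of 13 WT peaks overlapped a WTLPS peak (46.2%), against 79.4% of all WT peaks.

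SMC1 was rare at these promoters although CTCF was frequent. In WT, 2 of 57 members held an SMC1 peak, Pcdhgb6 and Pcdhga11, against 22.6% of all promoters. In WTLPS, Pcdhgb6 was the only one, against 19.1%. In KO and KOLPS there were 0, against 18.0% and 11.5%. Both members with an SMC1 peak in WT had none in KO, against 43.3% of all genes with an SMC1 peak in WT, and the 1 member of WTLPS had none in KOLPS, against 58.1%. Pcdhgb6 had an SMC1 fold of 4.84 in WT and 5.17 in WTLPS, and Pcdhga11 had 4.06 in WT. Both values in WT were below the median of 5.15 over all genes with an SMC1 promoter peak.

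Where CTCF was present, SMC1 was found at 2 of 32 members in WT and 1 of 27 in WTLPS, against 65.1% and 62.1% of all CTCF-bound promoters. Strength of the CTCF peak moved with this as well. In the 7 weaker parts of the WT list 0 of 29 members held SMC1, while 34.2% to 73.8% of other genes did, and in the ninth part 2 of 3 members and 81.8% of others did. Pcdhgb7 had the same CTCF fold as the members with SMC1 and no SMC1 peak in its window. The pseudogene Pcdhgb8 had SMC1 folds of 5.62 in WT and 6.65 in WTLPS and none in KO or KOLPS.

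Over the whole clusters, CTCF peaks in WT numbered 21 in alpha, 13 in beta and 15 in gamma, or 8.16, 5.01 and 8.33 per 100 kb against 2.22 over the genome. In WTLPS they were 15, 10 and 14. In KO they were 0, 0 and 2, the 2 gamma peaks being those of Pcdhgb7 and Pcdhgb8, and in KOLPS 0 in every cluster. Most WT peaks lay in member promoter windows (14 in alpha, 12 in beta, 12 in gamma). Of the 49 peaks of WT over the clusters, 2 overlapped a KO peak (4.08%), against 23.7% of all WT peaks. Of the 39 of WTLPS, 0 overlapped a KOLPS peak, against 17.5%, and 34 of the 49 WT peaks (69.4%) overlapped a WTLPS peak, against 79.4%. With lists cut to equal size, 1 peak was left over the clusters in WT and it overlapped a KO peak (100%), so the low share kept rests on the full lists, and of 3 left in WTLPS 0 overlapped a KOLPS peak.

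**Figure D5:**
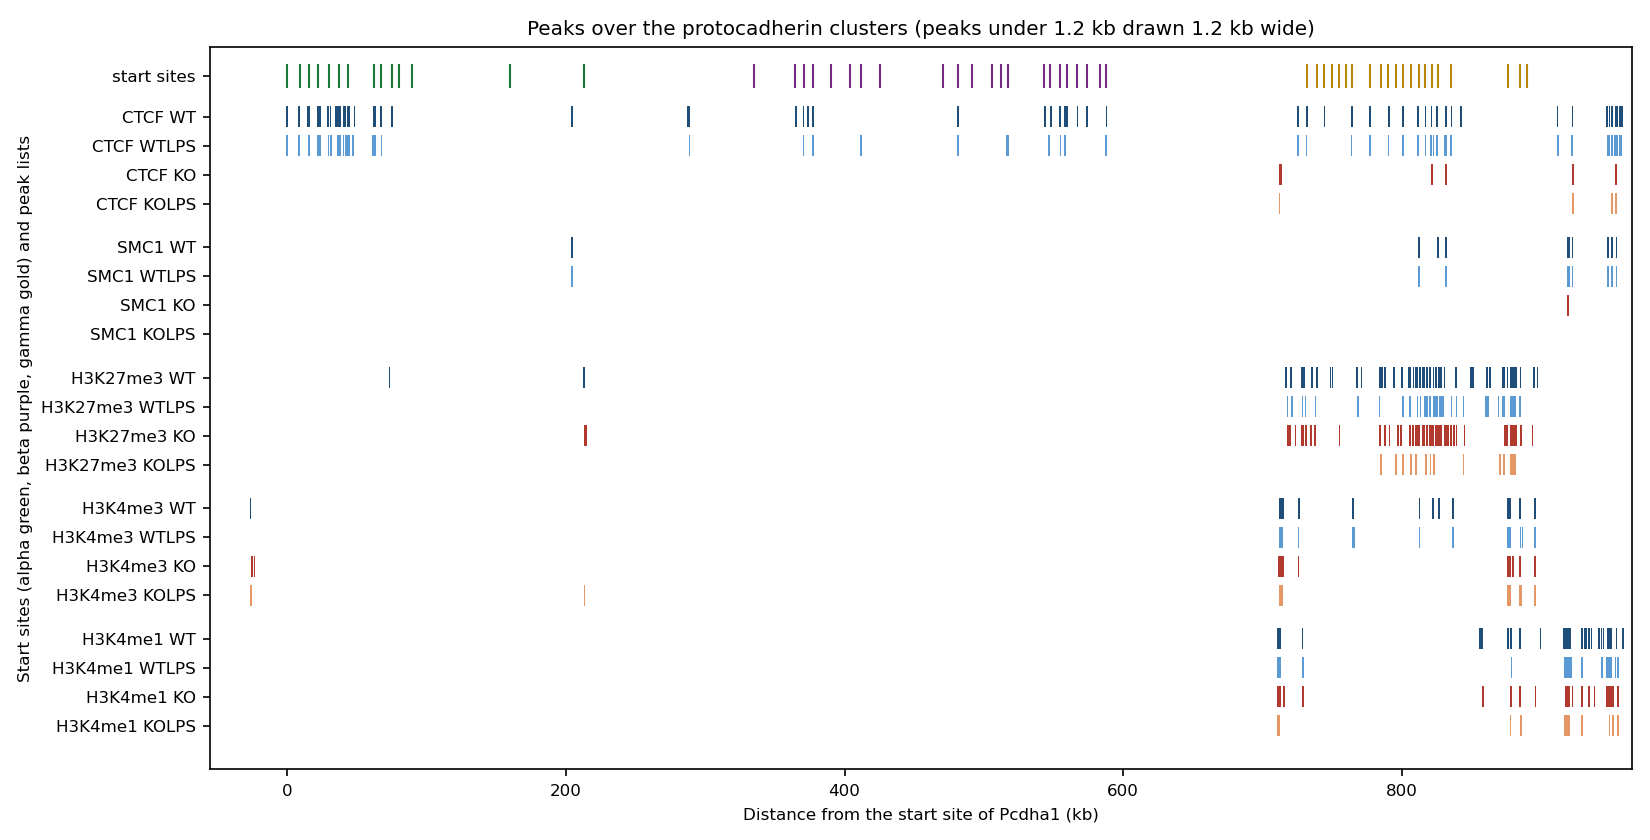
Peaks of CTCF, SMC1, H3K27me3, H3K4me3 and H3K4me1 in the 4 conditions (vertical axis) along the 3 clusters, with the distance from the first member's start in kb (horizontal axis) and member starts marked. CTCF peaks run through all 3 clusters in WT and WTLPS and are nearly gone in KO and KOLPS, and H3K27me3 lies at the gamma cluster in all 4.

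Outside the promoters, a CTCF peak at 37134030 to 37134425, with its summit at -9326 bp from the start of Pcdhac2, overlapped an SMC1 peak in WT, with a CTCF fold of 4.43 and an SMC1 fold of 3.90. SMC1 was listed there in WTLPS too, with a fold of 4.14, and neither protein was listed there in KO or KOLPS. Downstream of the alpha constant exons, where an enhancer of that cluster is known, a pair of CTCF peaks lay 30.0 and 30.9 kb past the last annotated base, at 37217352 to 37217971 and 37218261 to 37218842, each with a fold of 4.85 in WT. The second was also listed in WTLPS, and neither was listed in KO or KOLPS. A CTCF peak at 37654511 to 37656074, 6.29 kb before Pcdhga1, had a fold of 13.5 in WT and no counterpart in KO or KOLPS.

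The strongest CTCF sites near the clusters lay past the gamma cluster, in the actin regulator gene Diaph1, and these kept peaks in CTCF-deficient cells. The site at 37851822 to 37853201, 10.5 kb past the last gamma base, had CTCF folds of 35.0 and 27.4 in WT and WTLPS and of 6.58 and 6.02 in KO and KOLPS. Its SMC1 folds were 24.7 in WT and 25.3 in WTLPS, with no SMC1 peak in KO or KOLPS. A second site, at 37882901 to 37885111, had CTCF folds of 35.3, 30.0, 12.9 and 8.90 in the same order. In the 50 kb after the gamma cluster CTCF peaks numbered 7, 7, 2 and 3 and SMC1 peaks 6, 6, 1 and 0 in WT, WTLPS, KO and KOLPS.

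H3K27me3, the mark laid by Polycomb repressive complexes, separated the clusters. In WT it lay at 13 of 57 promoters (22.8%), of which 12 were gamma, 1 was alpha (Pcdhac2) and 0 were beta, against 19.7% of all promoters, so as a whole the members were near the background. The counts were 10 in WTLPS (against 13.7%), 13 in KO (against 20.0%) and 7 in KOLPS (against 5.52%), and all but Pcdhac2 in KO were gamma genes. In the order WT, WTLPS, KO and KOLPS, peaks covered 19.8%, 11.6%, 19.6% and 4.22% of the gamma cluster, against 4.29%, 2.08%, 4.14% and 0.687% of the genome. In the alpha cluster the share was between 0 and 0.410%, and in the beta cluster it was 0 in all 4 lists. In bins of 20 kb along the gamma cluster in WT it rose to 48.9% of the bin from 800 to 820 kb past the first alpha start.

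Pcdhga7, Pcdhga9, Pcdhgb6, Pcdhga10 and Pcdhgb7, alternate gamma isoforms in the middle of the cluster, had an H3K27me3 promoter peak in all 4 conditions. From WT to KO, 9 members had one in both, 4 lost it (Pcdhga2, Pcdhgb1, Pcdhga8 and Pcdhgb5) and 4 gained it (Pcdhga1, Pcdhga4, Pcdhgb4 and Pcdhga12), where 20.6% of all genes with a WT peak had none in KO. From WTLPS to KOLPS, 6 were shared, 4 were lost and 1 was gained, against 66.6% of all genes without the peak in KOLPS. From WT to WTLPS, 5 of 13 members lost it, against 37.6%, and from KO to KOLPS 8 of 13 did, against 73.7%. Fold values of these broad peaks are averages over the region and were low throughout, 2.83 to 4.96 in WT with a median of 3.33 (3.38 over all genes with such a peak). H3K27me3 lists were of unequal length (96475, 65880, 95080 and 26960 peaks, in the order WT, WTLPS, KO, KOLPS), and when all were cut to 26960 the member count went from 5 in WTLPS to 7 in KOLPS, a rise in place of the fall. With the same cut the count went from 8 in WT to 5 in KO, with 5 lost and 2 gained, in place of the equal counts.

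H3K4me3 was scarce at these genes in BMDCs. It lay at 7 of 57 promoters in WT, against 56.7% of all promoters, and at 5, 2 and 3 in WTLPS, KO and KOLPS, against 57.2%, 57.2% and 56.4%. The strongest belonged to the C-type genes of the gamma cluster. Pcdhgc3 had H3K4me3 folds of 19.7, 20.4, 22.3 and 15.5 in WT, WTLPS, KO and KOLPS. Pcdhgc4 had 11.4, 13.1, 14.2 and 9.81 in the same order. Both were thus listed in every condition, below the median fold of 28.2 over all genes with the mark in WT. Pcdhac2 was listed in KOLPS alone, with a fold of 3.76, and Pcdhgc5 and Pcdhac1 in no condition.

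The other 5 members with H3K4me3 in WT were alternate gamma isoforms that also held a CTCF peak there, and their weak H3K4me3 peaks were not in the KO list. Their folds in WT were 5.38 at Pcdhga5, 4.93 at Pcdhgb7, 4.39 at Pcdhgb6, 3.95 at Pcdhga12 and 3.59 at Pcdhga11. In WTLPS the folds were 4.18 at Pcdhga5, 3.71 at Pcdhgb6 and 4.18 at Pcdhga12, and Pcdhgb7 and Pcdhga11 had no peak. In KO and KOLPS none of the 5 had a peak, so 5 of 7 members lost the mark from WT to KO, against 1.78% of all genes, and 3 of 5 from WTLPS to KOLPS, against 2.89%. These 5 peaks ranked in the weaker part of the WT list, between the 6.26 and the 33.1 percentile. When that list was divided into 10 equal parts by -log10 p, other genes in the 4 weakest parts kept a peak in KO in 63.2% to 87.2% of cases, and members there in 0 of 5. On chromosome Y, H3K4me3 peaks numbered 23 and 20 in the control cultures (WT, WTLPS) and 3 and 3 in the CTCF-deficient cultures (KO, KOLPS). The study used male and female mice, by its account matched for sex between genotypes, and the sex behind each list is not given. For this mark, a difference in the animals behind the lists thus cannot be told apart from the genotype. Other antibodies showed no such split by genotype, for example 33 and 28 in control against 31 and 30 in CTCF-deficient cultures for CTCF, and 18 and 16 against 21 and 19 for H3K27ac.

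CTCF lay at 5 of the 7 members with H3K4me3 in WT, against 27.7% of all promoters with the mark. H3K27me3 lay at 5 of the 7 as well (Pcdhgb6, Pcdhgb7, Pcdhga11, Pcdhgc3 and Pcdhgc4), against 15.8%. All 7 were gamma genes, and of the 21 gamma promoters CTCF lay at 11 and H3K27me3 at 12 in WT. Both were thus frequent in that cluster, and a link with H3K4me3 was not tested. H3K27ac, a mark of active promoters and enhancers, lay at 0 of the 7, against 73.0%. Windows of 2 kb can hold both marks side by side, and the lists cannot tell whether the same cells or alleles carried them.

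H3K27ac lay at 0 of 57 member promoters in WT, WTLPS, KO and KOLPS, against 42.9%, 39.5%, 43.3% and 39.2% of all promoters, and no H3K27ac peak overlapped any of the 3 clusters. H3K4me1, a mark of enhancers and of the flanks of promoters, lay at 2 members in WT (Pcdhgc3 with a fold of 2.71 and Pcdhgc4 with 2.56), against 43.2%, at 0 in WTLPS (44.8%), at Pcdhgc4 in KO with 2.74 (42.1%) and at Pcdhgc4 in KOLPS with 2.48 (28.2%). H3K4me1 peaks covered 1.44%, 0.142%, 1.21% and 0.521% of the gamma cluster in WT, WTLPS, KO and KOLPS, against 9.50% of the genome in WT. No member promoter held p65, against 0.315%, 1.77%, 0.232% and 1.57% of all promoters in WT, WTLPS, KO and KOLPS, or STAT5, against 2.43% in WT and 2.06% in KO.

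Counted over all 30 lists, 25 members had CTCF or SMC1 at the promoter and no histone mark, 9 had a histone mark and neither protein, 9 had both and 14 had no promoter peak. The 9 with both were all alternate gamma isoforms. Alpha and beta genes were in most cases bound by CTCF alone or without peaks, and 9 of the 14 without any peak were beta genes. Pcdhgb6 and Pcdhgc4 had a promoter peak in the most lists, 10 each.

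Of 18 other protein-coding genes between the clusters, over them or within 200 kb, 3 are read-through models (Gm42416, Gm37013 and Gm37388) that start inside the alpha cluster, where Gm42416 shares the peak of Pcdha4. Of the 15 that start outside the clusters, 13 had H3K4me3 in each of the 4 conditions and 0 had H3K27me3, and CTCF lay at 3, 3, 4 and 1 of them in WT, WTLPS, KO and KOLPS. Taf7, a general transcription factor gene between beta and gamma, had a CTCF promoter peak with a fold of 8.86 in KO and none in WT, WTLPS or KOLPS, although a peak with a fold of 4.45 lay within the gene in KOLPS. Of the 12 non-clustered protocadherin genes, CTCF lay at 2 in WT (Pcdh1 and Pcdh15), 2 in WTLPS and 0 in KO and KOLPS, and H3K27me3 at 7, 4, 6 and 2. H3K4me3 lay at 3, 3, 6 and 5 of these 12 and H3K27ac at 0 in all 4 conditions. Pcdh1, also on chromosome 18, had CTCF folds of 16.5 in WT and 13.4 in WTLPS. Of 11 known regulators of the clusters, among them the cohesin subunit genes Rad21, Smc1a and Smc3, 10 had H3K4me3 and 0 had H3K27me3 in each condition.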

How the data were processed

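ChIP-seq was performed on 34 libraries, of which the 30 with an antibody have 1 deposited peak list each and 4 are inputs. Per the labels, the authors worked on mm10 with BWA 0.7.12, Picard 1.77, MACS2 2.1.2 and deepTools 3.1.3; the study's methods name other versions of these tools. In the deposited lists the fold (ratio) column is enrichment over background and the p and q columns are −log10 values. H3K27me3 and H3K4me1 are broad lists, which give averages for each region. The study had biological replicates, calls peaks per sample and replicate in its methods and says elsewhere that replicates were merged and processed again, and which of these a list holds is not given for each list. Read totals per library come with the paper and not with the files. For CTCF and H3K27me3 they differ less over the 4 conditions than the numbers of peaks do. The part of read depth in the counts of peaks was not tested. Lists of unequal length hold unequal numbers of weak peaks, which bears on every count of lost peaks.

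Promoters came from GENCODE vM21 (GRCm38.p6, the same build as mm10). Presence, position and fold were described by condition with Python 3.11.15, numpy 2.4.6, pandas 2.3.3 and scipy 1.17.1, and the overlap code was tested on simulated intervals. No test across conditions was made, as there is 1 list for each. Values were given for members with a CTCF or SMC1 promoter peak in KO or KOLPS, the 3 highest CTCF folds in WT of each cluster, the C-type members, Pcdhb1, and members with H3K4me3; others named belong to a count or were chosen after their values were seen. Members and lists were chosen with earlier results of these data known. Stretches of 50 bases that recur in the clusters made up a median of 0.564% and at most 17.9% of a window. Reads could be shared between paralogs there. The median was 8.12% in the alpha cluster and 0 in the beta and gamma clusters. Among beta promoters it was 5.84% without a WT CTCF peak and 0 with one. Among alpha promoters it was 3.31% without and 8.71% with one, and among gamma promoters 0 and 0.564%. Whether such stretches bear on unlisted peaks was not tested. No sequence is printed here. Alternatives were other promoter windows (0.5 and 2.5 kb), all start sites, summits, the stronger part of each list, lists of equal size, wider clusters and looser motif matches.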

Additional observations from a re-analysis of the deposited data

Results flagged for a closer look

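The number of members with an H3K4me3 promoter peak moved in opposite directions with LPS in the 2 genotypes. It differed by -2 from WT to WTLPS (Pcdhgb7 and Pcdhga11 not listed) and by 1 from KO to KOLPS (Pcdhac2 listed). The difference was not tested, as each condition has 1 list, and all 3 peaks were weak, with folds of 3.59 to 4.93. The number with an H3K4me1 promoter peak moved in opposite directions with the genotype, by -1 from WT to KO (Pcdhgc3) and by 1 from WTLPS to KOLPS (Pcdhgc4), and this difference was not tested either.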

How the results depend on the processing

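Of the comparison values recomputed under the alternatives, 60 were labelled as unchanged, 13 moved further and 1 reversed. For members losing a peak, unchanged meant a number lost within 1.5 times the main one and no net change of opposite sign. H3K27me3 from WT to KO had no net change in the main setting (13 and 13 members), so it could not be labelled reversed. It went to 8 and 5 with lists of equal size and to 8 and 11 with midpoints inside the window, both labelled unchanged. For shares of peaks kept over the clusters, unchanged meant a value inside the Wilson interval of the main share. Such shares could differ by more than 1.5 times. With 50 kb flanks added, the CTCF share kept from WT to KO was 6.9% against 4.08%. From WTLPS to KOLPS it was 6.25% against 0. With the stronger 50% of each list, members losing a CTCF promoter peak were 12 from WT to KO and 8 from WTLPS to KOLPS, those losing SMC1 from WT to KO were 0, and those losing H3K4me3 were 0 and 1. With lists of equal size, the CTCF losses were 0 and 2, the SMC1 losses 0 and 0, the H3K4me3 loss from WT to KO was 3, the H3K27me3 loss from WTLPS to KOLPS was 2 with a net gain (reversed), and the single CTCF peak left over the clusters in WT was kept in KO (100%); SMC1 left no peak over the clusters and gave no value. These 2 settings hold fewer peaks by construction. With a 2.5 kb window, members losing H3K27me3 from WT to KO were 2 and those losing H3K4me1 from WTLPS to KOLPS were 1. Of the other values, 278 were equal or within 1.5 times and 50 moved. The 278 include values of 0, which cannot change when lists are only shortened. No replicate could be left out. No paired analysis was possible because each antibody and condition has 1 list. Peaks below the callers' thresholds are not listed, so an unlisted site may still be bound.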
